A study of Mus musculus with 5 samples.

Results

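The DNA replication genes described here were 52 genes of origin licensing, replication fork movement and nucleotide supply. They were chosen by name from the 55573 genes of the count table, with earlier results of these data known. Before each S phase, the origin recognition complex marks start sites on DNA, and CDC6 and CDT1 load the ring-shaped MCM2-7 helicase there. Cyclin E with CDK2, and CDC7 with its activator DBF4, then trigger helicase activation by CDC45 and GINS. Polymerase alpha-primase lays the primers, and polymerases delta and epsilon copy the DNA while held by the PCNA clamp, which the RFC complex loads. Most of these genes are transcribed in late G1 and S phase under E2F factors, so their RNA is abundant in dividing cells such as a neuroblastoma line.

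RNA-seq was performed on polyadenylated RNA of Neuro-2A (N2A) cells, an established mouse neuroblastoma line. All cells were transfected with 60 pmol of siRNA, either Silencer Negative Control #1 (siCtl, 2 libraries, replicates 1 and 3) or an siRNA against Upf1 (siUpf1, 3 libraries, replicates 1, 2 and 3). UPF1 is a helicase of nonsense-mediated mRNA decay, and the comparison asks which transcripts differ in level when Upf1 is knocked down. A single line and a single Upf1 siRNA were used, so an effect of this siRNA other than through Upf1 cannot be told apart from the knockdown. Nothing in the labels ties the libraries to separate cultures, so p-values measure the spread between these libraries, which may be technical.

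The libraries held 20402205 to 27717594 assigned reads. Values below are read counts divided by DESeq2 size factors (normalised counts). A gene is called where the adjusted p-value of DESeq2's Wald test over all 15191 tested genes is under 0.05, and "rose" and "fell" are used for called genes alone. Upf1 fell from 5217 and 5243 normalised counts in siCtl to 2403, 2496 and 2449 in siUpf1, with a log2 fold change of -1.10 ± 0.05 (SE, adjusted p = 7.09e-101). Of 12 neuroblastoma and neuronal markers, Hand2, Tubb3 and Stmn2 were well expressed, whereas Nefl and Nefm averaged under 10 counts. The summed counts of the 12 markers were 37790 to 37800 in siCtl and 42480 to 44720 in siUpf1, and 6 of them rose and 2 fell. The summed level of 6 macrophage and leukocyte markers was 33.9 to 40.9 and that of 5 epithelial markers was 11.3 to 23.1. Fibroblast markers summed to 287.8 to 306.1 in siCtl and 223.4 to 257.6 in siUpf1, with Pdgfra lower, glial markers to 475.9 to 506.6 and 529.5 to 559.8, and endothelial markers to 273.6 to 277.4 and 225.0 to 234.8, with Pecam1 lower and Tek higher. The part of these differences in the results below was not tested. In bulk RNA, fewer cells in S phase and less RNA per cell cannot be told apart.

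All 52 replication genes were tested, with mean normalised counts of 283.4 to 7851. After Upf1 knockdown 7 rose and 13 fell, so that 20 were called (38.5%), against 44.9% of all tested genes called in either direction, 22.0% higher and 22.9% lower. The genes that rose were Orc2, Cdc6, Cdc7, Pold2, Pole, Rfc5 and Dut. Those that fell were Orc3, Cdt1, Mcm5, Cdc45, Ccne1, Dbf4, Pola1, Pold3, Pcna, Rfc2, Rfc3, Lig1 and Rrm2. The split depended on scaling, since size factors from total counts gave 10 higher and 10 lower. Leaving out a library also changed it. Only 4 genes were higher when siCtl replicate 1 was omitted, and again 4 when siUpf1 replicate 2 was omitted, and 7 were lower when siCtl replicate 3 was omitted.

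The changes were small. The median absolute log2 fold change was 0.14 over the 52 genes, against 0.28 over all tested genes and 0.24 over the 8847 tested genes within the same range of mean counts, of which 59.9% were called. No replication gene was called with an absolute log2 fold change of at least 1, which 4.85% of all tested genes were. At the lower limit of 0.5 there were 3, namely Rfc3, Ccne1 and Cdc6, against 18.5% of all tested genes. The median log2 fold change was -0.02, beside -0.0024 over all tested genes. In single libraries, the median log2 ratio to the siCtl mean was -0.02 and 0.02 in siCtl and -0.05, 0.02 and -0.02 in siUpf1 replicates 1, 2 and 3. The shift of the set as a whole was therefore no larger than the spread between libraries of the same group. All 32 genes that were not called had a 95% interval of the log2 fold change within 0.5 of 0.

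**Figure D1:**
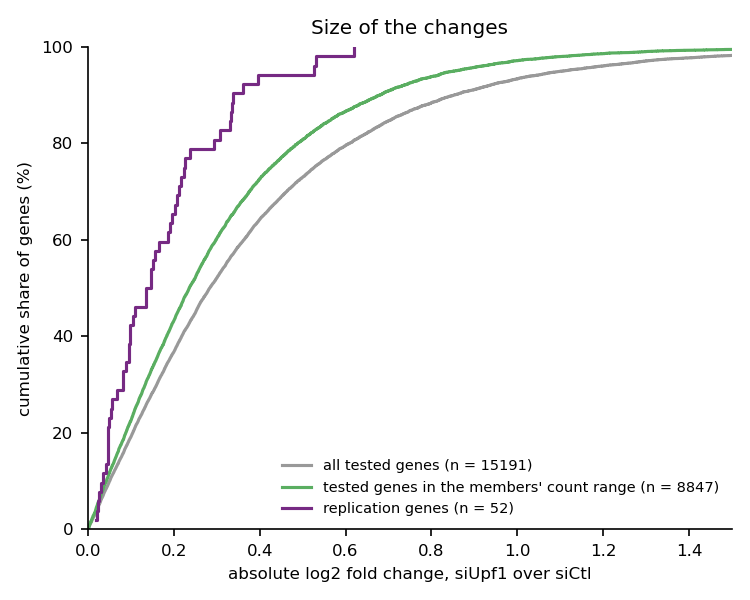
Cumulative share of genes (vertical axis, percent) by absolute log2 fold change of siUpf1 over siCtl (horizontal axis), for the 52 replication genes, the 8847 tested genes in the same range of mean counts and all 15191 tested genes. The curve of the replication genes lies to the left of the others, with a median of 0.14 against 0.24 and 0.28.

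The values of the 2 groups did not overlap for 37 of the 52 genes (71.2%), 18 of them higher and 19 lower in siUpf1, where 69.4% of all tested genes did not overlap, 34.3% higher and 35.2% lower. Among tested genes in the same range of mean counts, 78.9% did not overlap. All 20 called genes were among the 37.

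**Figure D2:**
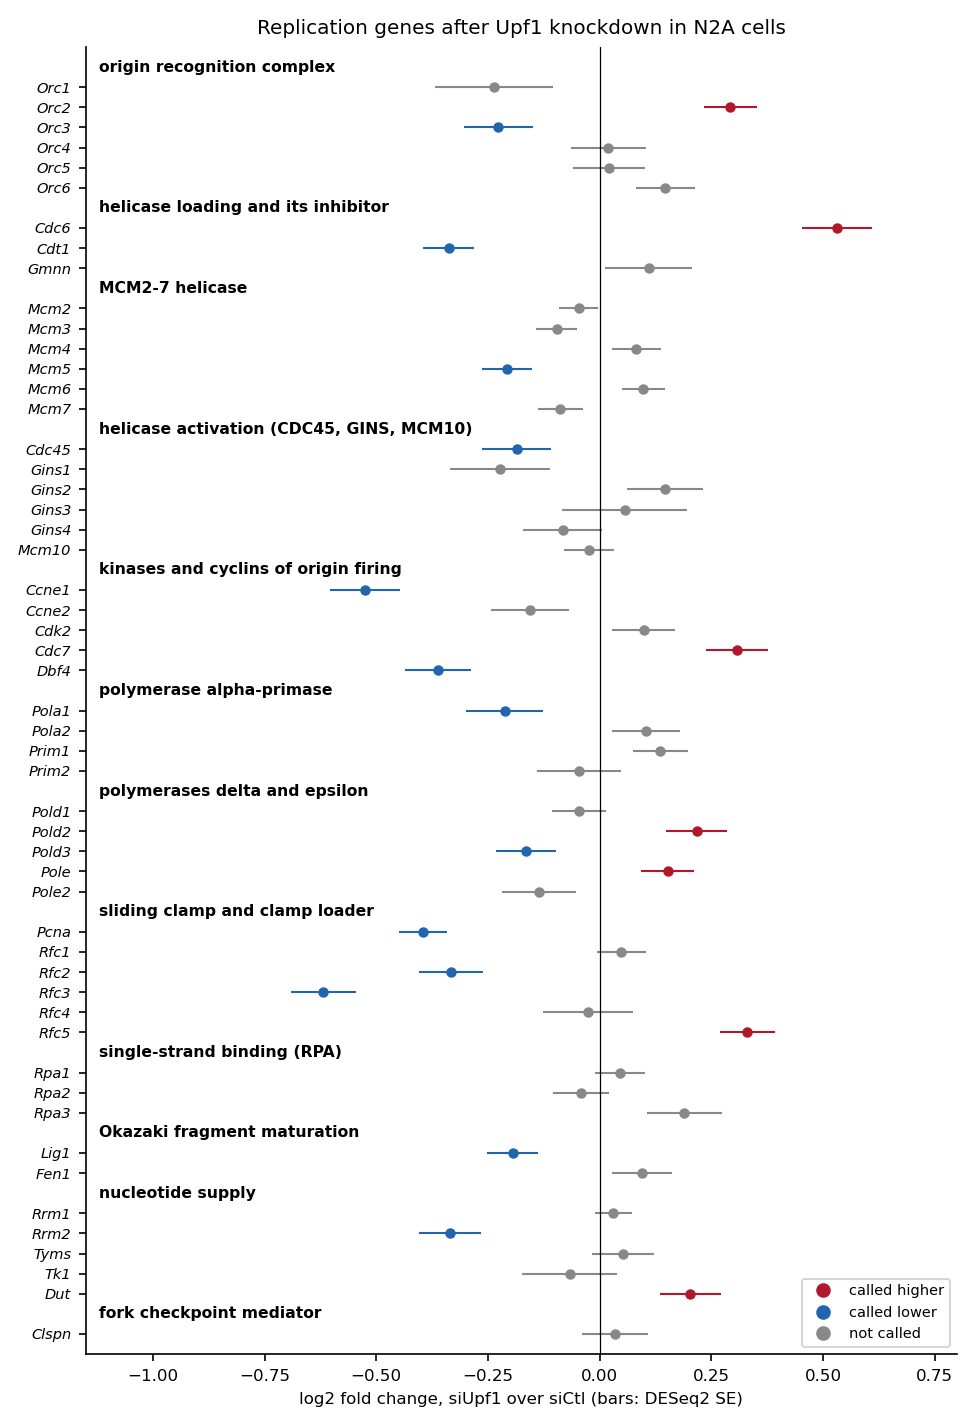
Log2 fold change of siUpf1 over siCtl (horizontal axis) for the 52 replication genes, grouped by role. Points are DESeq2 estimates and bars are their SE, with called genes in red (7 higher) and blue (13 lower) and the other 32 in grey. Within most role groups the points lie on both sides of 0, and the farthest from 0 are Rfc3 at -0.62 and Cdc6 at 0.53.

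The clamp and its loader held the largest change of the set, and 4 of the 6 genes were called. Counts for this and the following role groups stand beside 44.9% called among all tested genes. Within the same range of mean counts 59.9% were called. These small groups were not tested against those shares. RFC is a ring of a large subunit, RFC1, and the small subunits RFC2 to RFC5, which opens the PCNA clamp and places it on DNA. Rfc3 (chromosome 5, 151642756 to 151651242, minus strand, build GRCm38.p6) had 1654 and 1807 normalised counts in siCtl and 1127, 1138 and 1119 in siUpf1. All siUpf1 libraries lay far under both siCtl libraries, at 65.2% of the siCtl mean, and the log2 fold change was -0.62 ± 0.07 (SE, adjusted p = 2.82e-16). Rfc5, which encodes another small subunit, went the other way. Rfc5 (chromosome 5, 117378103 to 117389047, minus strand) had 1628 and 1665 counts in siCtl and 2062, 2058 and 2091 in siUpf1, a log2 fold change of 0.33 ± 0.06 (adjusted p = 6.07e-07). The siUpf1 libraries differed from each other by much less than from either siCtl library.

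Rfc2 fell from 1732 and 1776 counts to 1347, 1489 and 1350, a log2 fold change of -0.33 ± 0.07 (adjusted p = 1.48e-05). Rfc1 and Rfc4 were not called, at 0.05 ± 0.06 and -0.03 ± 0.10. Pcna, whose product is the clamp that tethers polymerases and many repair proteins to DNA, fell from 3138 and 3213 counts to 2381, 2435 and 2431, a log2 fold change of -0.40 ± 0.05 (adjusted p = 4.89e-12). The groups of both Rfc2 and Pcna did not overlap. Of the Pcna transcript, 51.4% has a copy of at least 97% identity in the pseudogene Pcna-ps2, which had at most 9 reads in a library. Reads shared between them could be lost in counting, so the level of Pcna is uncertain.

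Promoters of the genes with the largest fall and the largest rise, and of the partner of Rfc3 that rose, are shown because members of the set are known E2F targets. Each runs from 250 bases before to 50 bases after the RefSeq start (GRCm38.p6), and capitals mark the E2F-like cores searched for, which were TTCCCGC or TTGGCGC or TTCGCGC or TTGCCGC on either strand. The Rfc3 promoter is at chr5:151651159-151651458 (minus strand), the Rfc5 promoter at chr5:117388974-117389273 (minus strand), the Cdc6 promoter at chr11:98907901-98908200 (plus strand) and the Mcm6 promoter, which held the most cores among those shown, at chr1:128359656-128359955 (minus strand).
Rfc3: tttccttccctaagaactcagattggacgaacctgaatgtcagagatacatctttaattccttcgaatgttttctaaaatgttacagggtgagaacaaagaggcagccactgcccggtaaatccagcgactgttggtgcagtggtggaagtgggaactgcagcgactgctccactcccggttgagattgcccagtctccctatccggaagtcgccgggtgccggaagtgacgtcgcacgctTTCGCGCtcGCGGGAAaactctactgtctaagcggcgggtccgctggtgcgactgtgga
Rfc5: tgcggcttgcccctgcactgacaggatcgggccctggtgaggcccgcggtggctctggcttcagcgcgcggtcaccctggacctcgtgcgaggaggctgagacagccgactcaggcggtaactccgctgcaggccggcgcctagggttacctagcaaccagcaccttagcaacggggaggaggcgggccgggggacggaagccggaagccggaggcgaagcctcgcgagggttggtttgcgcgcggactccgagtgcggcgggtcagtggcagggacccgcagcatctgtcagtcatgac
Cdc6: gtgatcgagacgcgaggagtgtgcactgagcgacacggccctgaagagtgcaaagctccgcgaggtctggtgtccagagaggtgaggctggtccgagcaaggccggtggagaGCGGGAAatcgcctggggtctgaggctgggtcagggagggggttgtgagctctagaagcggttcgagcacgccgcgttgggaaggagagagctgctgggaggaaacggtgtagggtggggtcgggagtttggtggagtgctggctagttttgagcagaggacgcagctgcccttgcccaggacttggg
Mcm6: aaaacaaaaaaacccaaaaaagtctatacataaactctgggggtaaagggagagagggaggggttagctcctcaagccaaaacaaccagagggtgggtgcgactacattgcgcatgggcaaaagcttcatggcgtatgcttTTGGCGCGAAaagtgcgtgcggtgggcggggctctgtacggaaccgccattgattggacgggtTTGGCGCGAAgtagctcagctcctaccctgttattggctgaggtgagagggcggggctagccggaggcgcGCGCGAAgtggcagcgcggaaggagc

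The Rfc3 promoter held 2 cores, which begin 9 bases before the start (offset -9) and at the start itself (offset 0). The Cdc6 promoter held 1, at offset -138, but the RefSeq start used for it lies 350 bases downstream of the GENCODE start, so this whole window is inside the GENCODE gene, as were 9 of the 52 entries of the replication genes. The Rfc5 promoter held none and the Mcm6 promoter 5, some overlapping each other. Of the 52 genes, 43 had a promoter entry, some of them several, and 27 of those (62.8%) held a core in at least 1 entry, against 19.3% of the 10710 tested genes and 10.9% of the 27025 genes with an entry. A core was found for 2 of 6 genes that rose, 8 of 12 that fell and 17 of 25 that were not called. CCAAT, on either strand, was found for 25 of 43 (58.1%), against 43.3% of the tested genes. CCAAT read on the other strand as ATTGG can overlap the core TTGGCGC. A match is a string of letters and does not show that a factor binds there.

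Helicase loading held the largest rise. CDC6 and CDT1 act together in loading MCM2-7, and geminin, the product of Gmnn, blocks CDT1 after origins have fired. Cdc6 (chromosome 11, 98907801 to 98923940, plus strand) rose from 956.0 and 981.2 counts in siCtl to 1340, 1383 and 1476 in siUpf1. This was 144.5% of the siCtl mean, with every siUpf1 library above both siCtl libraries and a log2 fold change of 0.53 ± 0.08 (SE, adjusted p = 7.72e-11). Cdt1 (chromosome 8, 122568015 to 122573554, plus strand) fell from 4180 and 4089 counts to 3127, 3490 and 3207, a log2 fold change of -0.34 ± 0.06 (adjusted p = 2.33e-08). Gmnn was not called (0.11 ± 0.10, adjusted p = 0.384).

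Of the kinases and cyclins that fire origins, 3 of 5 were called. Ccne1 (chromosome 7, 38097984 to 38107534, minus strand), which encodes cyclin E1, the activator of CDK2 at the start of S phase, fell from 1504 and 1517 counts to 1081, 1099 and 973.4. The siUpf1 mean was 69.6% of the siCtl mean, and the log2 fold change was -0.53 ± 0.08 (adjusted p = 1.47e-10). Neither Ccne2, for cyclin E2, nor Cdk2 was called, at -0.16 ± 0.09 and 0.10 ± 0.07. Ccne2 was called lower under edgeR (adjusted p = 0.0441) and with the length and GC trend removed (adjusted p = 0.000925).

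The kinase CDC7 needs DBF4 for activity, and their genes went in opposite directions. Cdc7 rose from 1429 and 1374 counts to 1752, 1645 and 1799, a log2 fold change of 0.31 ± 0.07 (adjusted p = 4.6e-05). Dbf4 fell from 2257 and 2506 counts to 1979, 1875 and 1707, a log2 fold change of -0.36 ± 0.07 (adjusted p = 4.55e-06). The groups did not overlap for either gene.

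The origin recognition complex showed the same lack of a common direction, with 2 of 6 genes called. Orc2 rose from 2261 and 2371 counts to 2942, 2775 and 2792, a log2 fold change of 0.29 ± 0.06 (adjusted p = 3.06e-06). Orc3 fell from 1427 and 1548 counts to 1342, 1266 and 1206, a log2 fold change of -0.23 ± 0.08 (adjusted p = 0.00858). The call of Orc3 was lost without siCtl replicate 3, without siUpf1 replicate 3 (adjusted p = 0.0906) and with the replicate number as a block (adjusted p = 0.2). Orc1, for an ATPase subunit, had 370.0 and 398.1 counts in siCtl and 347.7, 293.7 and 333.4 in siUpf1, the farthest from 0 among the uncalled genes at -0.24 ± 0.13 (adjusted p = 0.137), though edgeR called it lower (adjusted p = 0.0284). Orc4, Orc5 and Orc6 were at 0.02, 0.02 and 0.15. Orc6 was called higher under edgeR (adjusted p = 0.0462), total-count size factors (0.0457), the count filter (0.0426) and with the length and GC trend removed (0.0126). Orc4 was called lower, at -0.18, once each library's trend with exon length and GC content was removed.

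**Figure D3:**
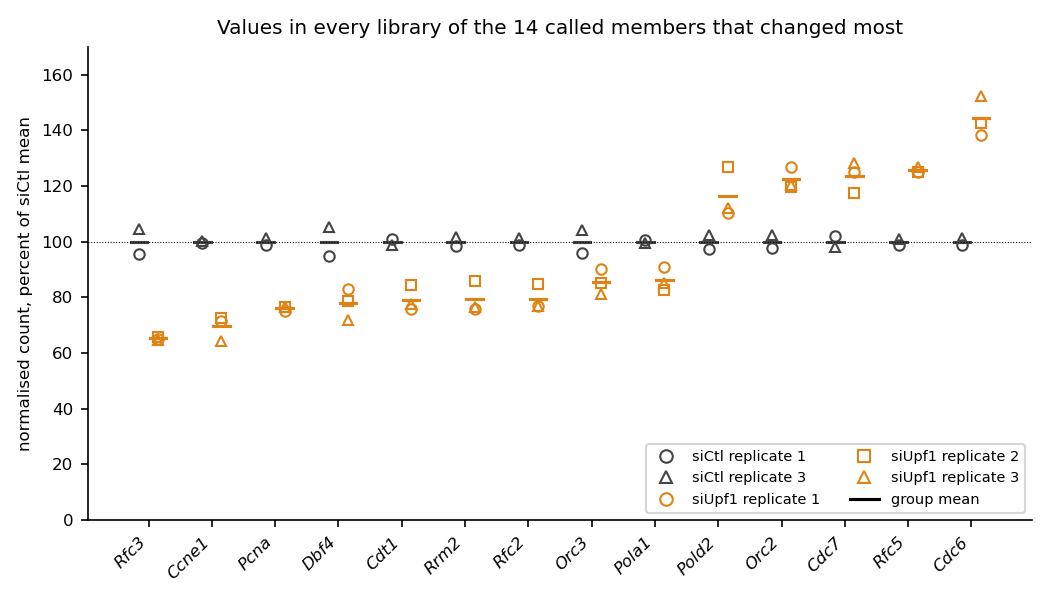
Normalised counts in every library as a percentage of the siCtl mean (vertical axis) for the 14 called replication genes with the largest absolute log2 fold change. Symbols give the replicate number, colours the group and short lines the group means. The siUpf1 libraries lie on one side of both siCtl libraries for each gene, from 65.2% for Rfc3 to 144.5% for Cdc6 as group means.

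The MCM2-7 helicase genes were among the most abundant of the set and moved little. Mcm5 alone was called, falling from 4861 and 5045 counts to 4007, 4486 and 4386, a log2 fold change of -0.21 ± 0.06 (adjusted p = 0.000736). Its adjusted p was 0.0615 without siCtl replicate 3. The other MCM2-7 genes had log2 fold changes of -0.10 (Mcm3) to 0.10 (Mcm6). Of the Mcm7 transcript, 72.8% has a near-identical copy in the pseudogene Gm5487, which had at most 4 reads in a library, so the level of Mcm7 is uncertain. In the whole set, 5 genes had more than 10% of a representative transcript copied in other genes. Besides Pcna and Mcm7 they were Pole2 (14.6%), Tk1 (11.5%) and Tyms (11.4%), whose levels are uncertain as well. Pole2 also shared 8.5% of its merged exon length with Gm49384 on the same strand.

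Among the helicase activators, 1 of 6 genes was called. Cdc45 fell from 1222 and 1195 counts to 1039, 1109 and 1044, a log2 fold change of -0.19 ± 0.08 (adjusted p = 0.0372). Its call was lost without siCtl replicate 1, siCtl replicate 3, siUpf1 replicate 1 or siUpf1 replicate 3, with adjusted p of 0.234, 0.155, 0.132 and 0.151. It was also lost with total-count size factors (0.0777), without independent filtering (0.0685) and with a replicate block (0.229). Gins1, a subunit of the GINS ring, had 505.3 and 508.5 counts in siCtl and 419.8, 431.7 and 451.1 in siUpf1. The groups did not overlap, yet the log2 fold change of -0.22 ± 0.11 was not called (adjusted p = 0.0924), although edgeR called it (adjusted p = 0.0178). Gins2, Gins3, Gins4 and Mcm10 were at 0.15, 0.06, -0.08 and -0.02.

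Of the 4 genes for polymerase alpha-primase, Pola1, which encodes the catalytic polymerase subunit, fell from 962.3 and 951.0 counts to 868.0, 789.4 and 815.6, a log2 fold change of -0.21 ± 0.09 (adjusted p = 0.0322). That call was lost without siCtl replicate 1, siCtl replicate 3, siUpf1 replicate 2 or siUpf1 replicate 3 (adjusted p = 0.194, 0.165, 0.132 and 0.125), and also with total-count size factors (0.0835), without independent filtering (0.0595) and with a replicate block (0.368). Pola2, Prim1 and Prim2, for the accessory and primase subunits, were at 0.10, 0.14 and -0.05, and Prim1 was called higher with total-count size factors (adjusted p = 0.0398) and with the count filter (0.046).

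Polymerases delta and epsilon gave 3 calls among 5 genes. Pold2, for an accessory subunit of polymerase delta, rose from 2323 and 2444 counts to 2626, 3023 and 2677, a log2 fold change of 0.22 ± 0.07 (adjusted p = 0.0039). The call was lost when siCtl replicate 1 or siUpf1 replicate 2 (adjusted p = 0.0518) was omitted, and with a replicate block (0.275). Pold3, for another accessory subunit, fell by 0.17 on the log2 scale (SE 0.07, adjusted p = 0.0319). The omission of any library removed that call, with adjusted p of 0.0561, 0.131 and 0.0792 without siUpf1 replicates 1, 2 and 3. It was also lost with total-count size factors (0.108), without independent filtering (0.0589) and with a replicate block (0.401). Pole, for the catalytic subunit of polymerase epsilon, rose by 0.15 (SE 0.06, adjusted p = 0.0241). It lost its call without siCtl replicate 1 (log2 fold change 0.10), siUpf1 replicate 2 (adjusted p = 0.0824) or siUpf1 replicate 3 (0.144). A replicate block also removed the call (0.293), as did removal of the length and GC trend, which gave a log2 fold change of 0.07. Pold1 and Pole2 were at -0.05 and -0.14.

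RPA coats the single-stranded DNA at the fork, and none of its 3 genes was called. Rpa3, for the smallest RPA subunit, had 857.5 and 885.9 counts in siCtl and 962.3, 1049 and 977.0 in siUpf1. Its log2 fold change of 0.19 ± 0.08 just missed the threshold (adjusted p = 0.0532). Rpa3 was called higher under edgeR (adjusted p = 0.0216), with total-count size factors (0.0326) and with the count filter (0.0372). Lig1, the ligase that seals Okazaki fragments, fell from 3735 and 3929 counts to 3190, 3547 and 3320, a log2 fold change of -0.19 ± 0.06 (adjusted p = 0.00233). Without siCtl replicate 3 its adjusted p was 0.121. Fen1, the flap nuclease of the same step, was at 0.09 ± 0.07.

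In nucleotide supply, 2 of 5 genes were called. Ribonucleotide reductase joins a large subunit, RRM1, with a small one, RRM2, whose RNA is the more tightly tied to S phase. Rrm2 (chromosome 12, 24708241 to 24714146, plus strand) fell from 2139 and 2212 counts to 1650, 1870 and 1668, a log2 fold change of -0.33 ± 0.07 (adjusted p = 7.46e-06). Rrm1 was at 0.03 ± 0.04. Dut, the dUTPase, rose by 0.20 on the log2 scale (SE 0.07, adjusted p = 0.00798). Its call was lost without siCtl replicate 1, without siUpf1 replicate 2 (adjusted p = 0.0722) and with a replicate block. Tyms and Tk1 were at 0.05 and -0.07. Clspn, whose product claspin relays the replication checkpoint to CHK1, had 1355 and 1450 counts in siCtl and 1502, 1387 and 1419 in siUpf1, with overlapping groups.

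Levels of different genes were compared as normalised counts per kb of merged exon, since long genes collect more reads. In siCtl, the MCM2-7 genes lay between 763.2 (Mcm4) and 1583 (Mcm3) per kb. Mcm4 was below the other MCM2-7 genes in all 5 libraries, whereas Mcm2 and Mcm7, at 1151 and 1170, did not differ beyond their spread. Pcna (1323), Cdt1 (1317) and Pold2 (1257) lay within that range. The lowest were Gins3 (102.2), Pola1 (108.5), Orc1 (110.4) and Prim2 (120.1). Within the origin recognition complex, Orc6 and Orc2 were at 661.7 and 600.5 per kb of merged exon and Orc3, Orc4 and Orc5 at 244.3, 210.2 and 162.6. The order depends on the length used. Per kb of a representative transcript, Orc6 was at 1270, and Orc2 and Orc3, at 650.4 and 646.7, did not differ beyond their spread. Per kb of a representative transcript, Mcm2 (2374) rather than Mcm3 (1959) was the highest MCM2-7 gene, and Mcm4 (763.2) stayed the lowest.

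**Figure D4:**
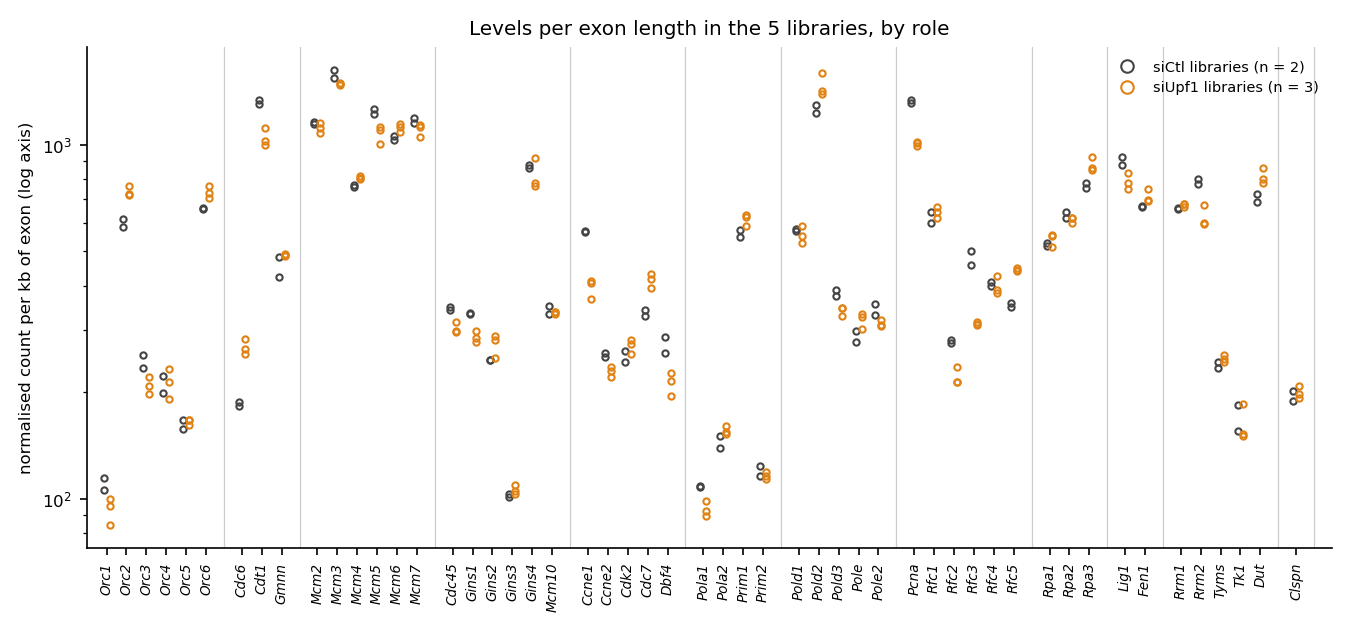
Normalised counts per kb of merged exon (vertical axis, log scale) of the 52 replication genes in each of the 5 libraries, ordered by role, with siCtl in grey and siUpf1 in orange. The siCtl means run from 102.2 for Gins3 to 1583 for Mcm3.

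Ratios of genes whose products work together do not depend on library scaling. They were computed from counts per kb for 8 pairs, which were chosen after the values were seen, so they are a description. Rfc5 over Rfc3 was 0.761 and 0.713 in siCtl and 1.42, 1.40 and 1.45 in siUpf1. Whether it passes 1 depends on the length used, since per kb of representative transcript Rfc3 was above Rfc5 in both groups (means of 1314 and 588.9 in siCtl and of 856.5 and 740.6 in siUpf1). Cdc7 over Dbf4 was 1.32 and 1.14 in siCtl and 1.85, 1.83 and 2.20 in siUpf1. Cdc6 over Cdt1 was 0.137 and 0.144 in siCtl and 0.257, 0.238 and 0.276 in siUpf1. Each of these ratios was higher in every siUpf1 library.

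The ratio of Orc2 to Orc3 had means of 2.46 in siCtl and 3.52 in siUpf1, that of Rrm1 to Rrm2 0.842 and 1.09, and that of Pold2 to Pold3 3.30 and 4.32. Cdt1 over its inhibitor Gmnn had means of 2.93 and 2.14, and Ccne1 over Ccne2 of 2.23 and 1.72. The groups did not overlap for any of the 8 pairs. Several pairs join a gene that rose with a gene that fell, and all were chosen after the values were seen, so this separation is no test. With 2 libraries against 3, the exact permutation test used here cannot give a p under 0.2 for 1 value. Its two-sided p is 2 times the smaller one-sided p.

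**Figure D5:**
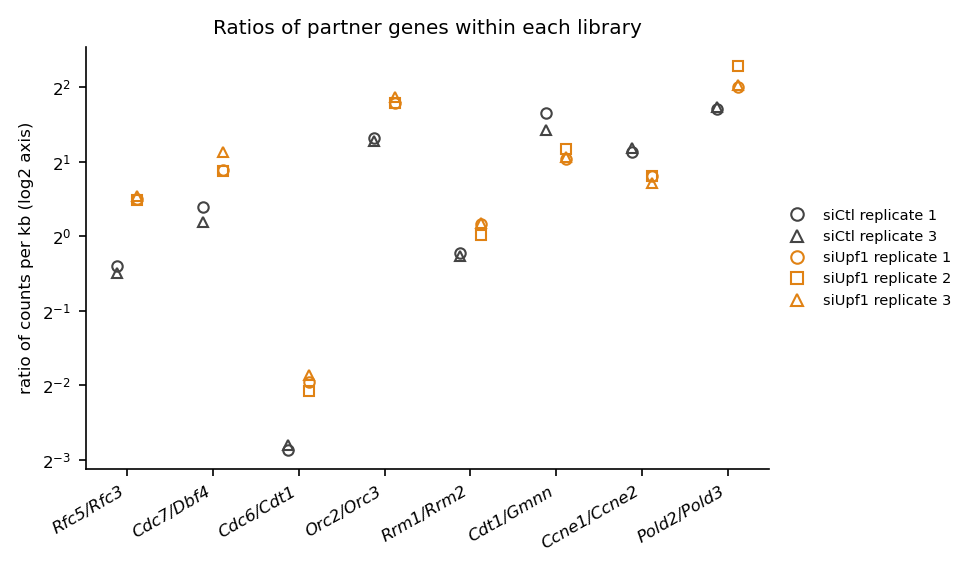
Ratio of counts per kb (vertical axis, log2 scale) for 8 pairs of genes whose products act together, in each of the 5 libraries. Symbols give the replicate number and colours the group. Rfc5 over Rfc3 passes from 0.761 and 0.713 in siCtl to between 1.40 and 1.45 in siUpf1. The groups do not overlap for any pair, but the pairs were chosen after the values were seen.

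Matches to the seeds of the Upf1 siRNA were searched in the 3′ UTR of 1 representative transcript per gene, for bases 2 to 8 of either strand. Of 51 replication genes with a 3′ UTR of at least 50 nt, 3 held a match (5.88%), against 16.1% of 12402 tested genes. The 3′ UTRs of the replication genes were shorter, with a median of 531 nt against 1019 nt. Orc4 held a match to the guide strand, and Ccne2 and Rfc2 held matches to the sense strand. The sites are shown because this siRNA could pair with a replication mRNA there, with the 7 matched bases in capitals. Coding sequences and other transcripts of these genes were not searched.
Orc4: cattattaGATAATTctaaagtg
Ccne2: caggcatgAACCTTGtctctctt
Rfc2: gggaattgAACCTTGgtctcctg

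Of these 3 genes, Rfc2 fell, and Orc4 and Ccne2 were not called. None of the other 12 genes that fell, Rfc3 among them, held a match in the 3′ UTR searched. Among all tested genes, a sense-strand match was found in 463 of 3318 called lower, 271 of 3067 called higher and 509 of 6017 not called, and a guide-strand match in 266, 273 and 433 of them.

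The other replication genes, a list of 66 that act beside the 52, also moved in both directions. Of 65 tested, 15 rose and 18 fell (50.8% called), with a median log2 fold change of -0.02. Cdkn2b was not tested. Among the largest rises were Cdkn2d (0.92 ± 0.09) and Cdkn2c (0.52 ± 0.13), which encode INK4 inhibitors of CDK4 and CDK6, Cul4a (0.61 ± 0.05), a scaffold of the ligase that degrades CDT1, and Dna2 (0.46 ± 0.07), a nuclease of Okazaki fragments. The largest falls were in Cdkn1a (-0.63 ± 0.07), for the CDK inhibitor p21, in Mcmbp (-0.59 ± 0.06), for an MCM-binding protein, in Samhd1 (-0.53 ± 0.08), which breaks down dNTPs, in Wee1 (-0.52 ± 0.07), a kinase that restrains CDKs, and in Rad17 (-0.51 ± 0.06), which loads the checkpoint clamp. Of 6 genes of S-phase kinase control and the checkpoint, the cyclin gene Ccna2 rose (0.12 ± 0.05), and 4 fell, namely the kinase genes Chek1 (-0.39 ± 0.10), Atr (-0.26 ± 0.09) and Wee1 and the phosphatase gene Cdc25a (-0.35 ± 0.06). Of 8 genes of replication-coupled chromatin assembly, 3 rose and none fell. Over all tested genes 22.0% rose and 22.9% fell.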

How the data were processed

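Polyadenylated RNA of 5 libraries was analysed. Per the labels and the study's methods, the authors demultiplexed reads with bcl2fastq, trimmed them with fastp, mapped them to GRCm38.p6 with STAR 2.7.0f and counted exonic reads on the reverse strand with featureCounts (Subread 1.6.4). The deposited values are raw counts per gene, neither normalised nor pooled. The stated counting parameters name no option for reads with several mapping positions, which featureCounts leaves out by default.

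Groups were taken from the labels. The counts were tested with DESeq2 1.42.0 in R 4.3.3 (Wald test, median-of-ratios size factors, independent filtering, Benjamini-Hochberg adjustment over all genes), following the study's choice of test. Fold changes are log2 of siUpf1 over siCtl and 95% intervals come from the SE. Intervals cover the modelled spread between libraries, and PCR duplicates cannot be recognised in counts. Alternatives were edgeR 4.0.16 (quasi-likelihood), TMM and total-count size factors, a filter that kept genes with 10 or more counts in 2 or more libraries, omission of independent filtering, the replicate number as a block, removal of each library's trend with exon length and GC content, and each library left out in turn. Scripts were tested on simulated data. Positions, exon lengths and 3′ UTRs came from GENCODE M21, where 99.83% of the identifiers were found, and promoters from the RefSeq table of GRCm38.p6. The replication genes had 52 promoter entries, of which 41 had their last 50 bases in a GENCODE transcript of the gene. Copies were found with BLAST+ 2.17.0 (at least 97% identity over at least 80 nt).

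The members and lists were chosen with earlier results of these data known. By rule, values per library are given for the 14 called members with the largest absolute log2 fold change (mean normalised count of 50 or more) and for the leading member of each of 12 role groups, and from the further list the 5 called genes at each end are named, except for a result that is not reported here. Ccna2, Chek1, Atr, Cdc25a, Pdgfra, Pecam1 and Tek fall outside the rule and were chosen after their values were seen.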

Additional observations from a re-analysis of the deposited data

How the results depend on the processing

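Of the 20 called replication genes, 11 were called in the same direction under all 12 alternatives (Orc2, Cdc6, Cdt1, Ccne1, Cdc7, Dbf4, Pcna, Rfc2, Rfc3, Rfc5 and Rrm2), and none of the 20 changed sign. The other 9 lost their call under at least 1 alternative. Of 636 values of single genes (the replication genes and Upf1 under each alternative), 572 kept both direction and call, 38 lost the call, 13 gained one and 13 changed sign. Deviations of same-numbered libraries from their group means correlated at -0.09 (number 1) and -0.07 (number 3), which gave no sign of pairing. Because the siCtl group holds libraries of these numbers alone, their deviations from its mean mirror each other. The correlations are therefore not separate checks, and they cannot show that the libraries were unpaired. A block for the replicate number gave 1957 higher and 1962 lower calls in the whole table. Under it, 4 replication genes were called higher and 9 lower, and 7 of the further list were called higher. Total-count size factors put the median log2 fold change of the further list at 0.0097. With the length and GC trend removed, Orc4, Orc5, Rfc4, Rrm1 and Clspn had log2 fold changes of -0.1833, -0.0147, 0.0134, -0.0447 and -0.0005, each with the sign opposite to that reported.

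When each library was left out in turn, the replication genes called higher numbered 4 to 7 and those called lower 7 to 11, and their median log2 fold change was -0.0529 to 0.0175. Signs of uncalled genes also turned, with ranges of -0.0617 to 0.0997 for Orc4, -0.0211 to 0.0601 for Orc5, -0.0641 to 0.0130 for Mcm10, -0.0038 to 0.0962 for Rfc1, -0.0715 to 0.0067 for Rfc4, -0.1878 to 0.0603 for Tk1 and -0.0168 to 0.0821 for Clspn. Leaving out a siCtl library leaves 1, which is then assumed to vary like the siUpf1 libraries. The cause of these shifts was not tested. The median SE of the replication genes was 0.07 on the log2 scale, which limits what could be called.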
